A study of Capra hircus with 4 samples.

Results

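The genes described here are 8 members of the bone morphogenetic protein (BMP) pathway that have been linked to litter size in small ruminants. They are the type I receptor genes BMPR1A, BMPR1B and ACVR1, the type II receptor genes BMPR2 and ACVR2A, and the genes of the signal carriers SMAD1, SMAD5 and SMAD9. They were taken by gene symbol, and all 8 were found once each among the 28944 genes of the deposited count matrices. The data came from single-nucleus RNA sequencing of the left ovaries of 4 goats, with 1 library per goat. The 2 Du'an goats were monotocous (recorded litter size 1) and the 2 Nubian goats were polytocous (recorded litter size 3). All 4 were about 3 years old, and estrus had been synchronised in all of them with a vaginal device holding 300 mg of progesterone, worn for 17 days. Ovarian adventitia and fat had been trimmed away before nuclei were released. Breed and litter size cannot be told apart in this design, and neither can be told apart from the individual goats beyond 2 per group.

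BMPs are secreted dimers that bring together type I and type II receptors, both of which are serine/threonine kinases. The type II receptor phosphorylates the type I receptor, which then phosphorylates SMAD1, SMAD5 or SMAD9. These bind SMAD4 and enter the nucleus, where genes such as the ID family are switched on. In the ovary the oocyte ligands BMP15 and GDF9 and the BMPs of theca and granulosa cells act on follicle growth and steroid synthesis, and BMPR1B is the gene of the Booroola fecundity mutation of sheep.

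The 4 libraries held 48332 nuclei and 225537272 unique molecular identifiers (UMIs), and 44687 nuclei were kept, with 8720 to 15846 per goat and a median depth of 1755 to 3291 UMIs. Between 54 and 131 barcodes were shared by any pair of libraries. Clustering without the 8 genes and without the other listed BMP pathway genes gave 26 clusters, of which 24 were named after marker genes and made up 14 classes. All names below mean "like" that cell type. No cluster carried enough oocyte markers for a name, and the 2454 unnamed nuclei stayed out of the comparisons. They were cluster 9 (1986 nuclei), which scored highest on epithelial markers, and cluster 20 (468 nuclei), which scored highest on granulosa markers. Both met the marker thresholds but had more markers of another list among their leading genes. Mural granulosa-like nuclei were absent from Du'an 1, with 4963 of 7036 in Nubian 1, and fibroblast-like nuclei came mostly from Nubian 1, with 598 of 753. Ciliated-like nuclei reached 20 in Du'an 2 and Nubian 2 alone. No cluster was named stromal. Cluster 2, with 5111 of the 9076 smooth muscle-like nuclei, scored nearly as high on stromal markers (mean log2 fold 2.98 against 3.35). Stromal nuclei may therefore sit under the smooth muscle-like name. Levels below are UMIs of a gene per 1000000 UMIs of the class in a goat (CPM). Levels were compared between classes and not between genes, since nuclear transcripts of different length yield different numbers of UMIs.

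Across the 14 classes, 51 of the 112 pairs of gene and class passed the test, which set each class against all others averaged (edgeR's quasi-likelihood test with the goat as a block, Benjamini-Hochberg adjusted over 14944 genes). Of these, 29 were higher and 22 were lower. Over all genes, 61671 of 209216 pairs of gene and class passed. BMPR1B had its highest level in epithelial-like nuclei, SMAD1 in lymphatic endothelial-like nuclei and ACVR1 in blood endothelial-like nuclei in all 4 goats. The 8 genes were all lower in T or natural killer-like nuclei, where 54.2% of all genes passed in either direction. None passed the test in fibroblast-like nuclei, where 20.4% of all genes did.

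**Figure D1:**
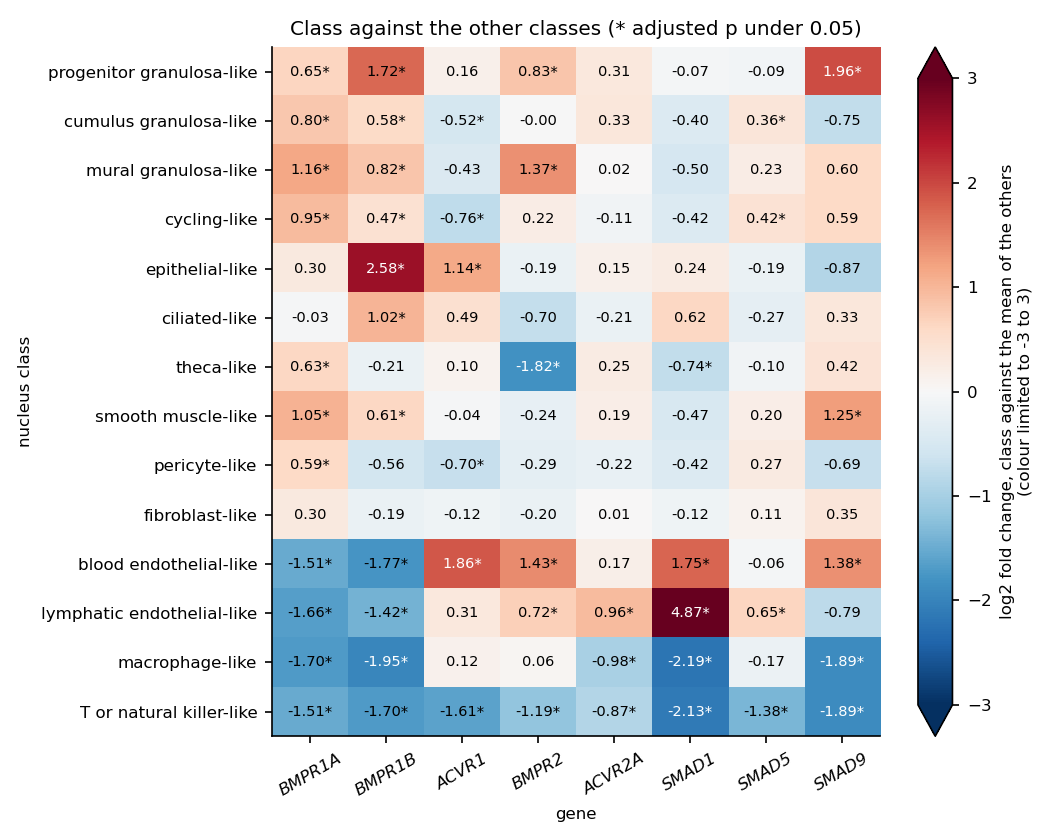
Log2 fold change of each gene in each class against all others averaged, with the value printed in each cell and an asterisk where the edgeR adjusted p was under 0.05. The strongest cell is SMAD1 in lymphatic endothelial-like nuclei (4.87), followed by BMPR1B in epithelial-like nuclei (2.58).

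BMPR1B encodes a type I receptor, and its transcript was most abundant in epithelial-like nuclei. It stood there at 4789 CPM in Du'an 1, 5353 in Du'an 2, 3660 in Nubian 1 and 6914 in Nubian 2 (5179 ± 1354, SD, n = 4). Against the other classes this was a log2 fold change of 2.58 ± 0.15 (SE, adjusted p = 1.71e-19). Every goat had this class at the top, although only 25 nuclei in Du'an 1 and 34 in Nubian 1 stood behind it. The class was cluster 18 alone, with 546 nuclei. The unnamed cluster 9, with 1986 nuclei, also scored highest on epithelial markers (mean log2 fold 4.02) and was not part of it. There BMPR1B held 760 CPM on average (597 to 1027 over the goats), so the high level does not cover all nuclei with epithelial markers. Progenitor granulosa-like nuclei came second at 2567, 3082, 3371 and 1507 CPM in the same order of goats (2632 ± 820, n = 4), with a log2 fold change of 1.72 ± 0.16 (adjusted p = 3.35e-12). The ranges of these leading classes did not overlap. From the second place down, each class overlapped the next in the order over goats.

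BMPR1B was also higher in the other granulosa-like classes, by smaller amounts. The log2 fold changes were 0.82 ± 0.20 in mural (adjusted p = 0.00104), 0.58 ± 0.18 in cumulus (adjusted p = 0.00902) and 0.47 ± 0.18 in cycling nuclei (adjusted p = 0.0373). The call in cycling-like nuclei was lost under 6 alternative settings, among them those without either Du'an goat (adjusted p = 0.0719 and 0.0948). Smooth muscle-like nuclei (1515 ± 169 CPM, n = 4) and ciliated-like nuclei (1479 and 1471 CPM in the 2 goats that had them) were higher as well, with log2 fold changes of 0.61 ± 0.18 and 1.02 ± 0.25. Theca-like, fibroblast-like and pericyte-like nuclei held 1019, 994 and 753 CPM on average and did not pass the test. The lowest levels were those of lymphatic endothelial-like (368 ± 99.9), blood endothelial-like (305 ± 115), T or natural killer-like (304 ± 104) and macrophage-like nuclei (266 ± 130, n = 4 each), whose ranges overlapped.

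**Figure D2:**
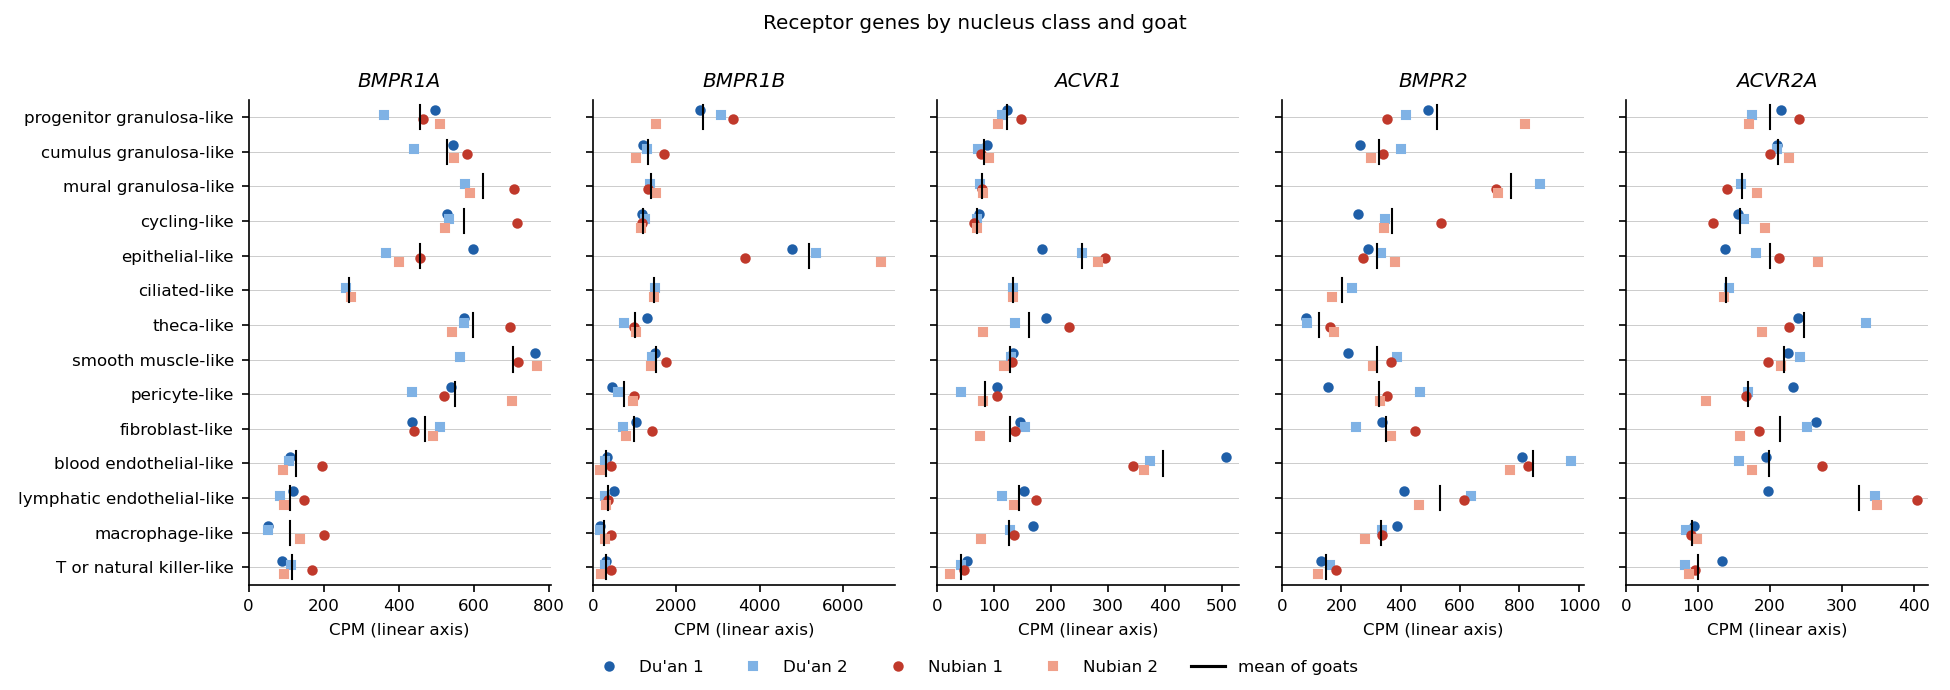
CPM of the 5 receptor genes (horizontal axes, linear, each with its own scale) in the 14 classes, with 1 point per goat and a black line at the mean of the goats. BMPR1B is highest in epithelial-like nuclei in each goat, between 3660 and 6914 CPM, and ACVR1 in blood endothelial-like nuclei, between 344 and 507 CPM.

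BMPR1A encodes the sister type I receptor. Its transcript spread over the granulosa-like and mesenchymal classes and was low in endothelial-like and immune nuclei. Smooth muscle-like nuclei had the highest mean and led in 3 of the 4 goats. They held 762 CPM in Du'an 1, 564 in Du'an 2, 717 in Nubian 1 and 768 in Nubian 2 (703 ± 95.7, n = 4). Their log2 fold change was 1.05 ± 0.14 (adjusted p = 3.03e-08). Mural granulosa-like nuclei had the next mean, at 577 CPM in Du'an 2, 706 in Nubian 1 and 589 in Nubian 2, with a log2 fold change of 1.16 ± 0.16. In Du'an 2 they were the highest class, with theca-like nuclei at 573 CPM. BMPR1A was also higher in cycling (0.95 ± 0.14), cumulus (0.80 ± 0.14), progenitor (0.65 ± 0.14), theca-like (0.63 ± 0.16) and pericyte-like nuclei (0.59 ± 0.16), on the log2 scale. The call in theca-like nuclei was lost without Du'an 2 (adjusted p = 0.103) and that in pericyte-like nuclei without Nubian 2 (adjusted p = 0.0949). The first 9 classes of the order, from smooth muscle-like at 703 CPM to epithelial-like at 456 CPM, each overlapped the next over goats. A gap without overlap lay below the epithelial-like class and another below the ciliated-like class at 267 CPM, and the last 4 classes held 111 to 127 CPM on average.

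The low levels of both sister receptors in endothelial-like and immune nuclei were set against a class of immune nuclei, since RNA that is free in the droplets can give UMIs in any nucleus and no profile of empty droplets was used here. T or natural killer-like nuclei were taken as the class to compare with, on the assumption that they make little of these receptors. After each nucleus of 1000 or more UMIs was thinned to 1000, 22.6% ± 6.09 of T or natural killer-like nuclei had a UMI of BMPR1B (mean over goats, SD, n = 4). The share was 23.6% ± 7.39 for the blood endothelial-like class, 23.2% ± 4.85 for the lymphatic one and 21.3% ± 9.55 for macrophage-like nuclei. For BMPR1A these shares were 8.72%, 11.5%, 9.43% and 10.6%. These mean shares lay within the spread over goats of the T or natural killer-like share. Goat by goat, the BMPR1A share of blood endothelial-like nuclei was above the T or natural killer-like share in each goat. The ranges were 8.33% to 17.6% against 4.26% to 15.1%. Macrophage-like nuclei were above it except in Du'an 2 (4.33% against 8.11%), with 16.2% against 7.41% in Nubian 2. Lymphatic endothelial-like nuclei were above it in Du'an 1 alone. The shares of these classes were not read as expression. Neither the differences by goat nor the part of free RNA in them was tested. In the same classes the ratio of BMPR1B to BMPR1A UMIs was 1.73 to 4.32 over the goats, against 2.37 to 3.70 over all nuclei of a library. Epithelial-like nuclei had the highest ratio in each goat, with 8.03 in Du'an 1, 14.6 in Du'an 2, 8.02 in Nubian 1 and 17.2 in Nubian 2. Progenitor nuclei had 5.18, 8.55, 7.24 and 2.96 in the same order, which overlapped the epithelial-like range, and ciliated-like nuclei had 5.70 and 5.39 in Du'an 2 and Nubian 2. Without thinning, the T or natural killer-like share for BMPR1B was 41.6%, at a median depth of 2242 UMIs against 3828 in epithelial-like nuclei.

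Above that level, BMPR1B was found after thinning in 80.5% ± 17.2 of epithelial-like, 74.8% ± 10.1 of progenitor, 68.3% ± 3.20 of mural, 62.4% ± 6.52 of cumulus and 60.4% ± 5.06 of cycling nuclei. It was likewise found in 72.3% ± 2.19 of ciliated-like (2 goats) and 67.4% ± 5.38 of smooth muscle-like nuclei. Theca-like, fibroblast-like and pericyte-like nuclei had 56.0% ± 8.94, 46.8% ± 17.0 and 41.3% ± 10.7. The epithelial-like share was lowest in Du'an 1, where 12 of 20 nuclei gave 60.0% with an exact binomial 95% interval of 36.1% to 80.9%. BMPR1A was found in 48.2% ± 5.10 of smooth muscle-like and 42.4% ± 3.99 of mural granulosa-like nuclei. Between 1286 and 3349 nuclei per goat had under 1000 UMIs and were left out of these shares, whose intervals cover counting error only. Across all members, 99 of 104 pairs of gene and class had a mean share above that of the T or natural killer-like nuclei. All 8 members were called lower in that class, so a high count was built in. It also includes shares that were not read as expression, and it does not measure detection above background.

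ACVR1 encodes a further type I receptor of BMPs, also known as ALK2, and its transcript was most abundant in blood endothelial-like nuclei. The level there was 507 CPM in Du'an 1, 374 in Du'an 2, 344 in Nubian 1 and 364 in Nubian 2 (397 ± 74.4, n = 4), a log2 fold change of 1.86 ± 0.13 (adjusted p = 8.25e-17). Epithelial-like nuclei came second at 184, 254, 294 and 283 CPM, below the blood endothelial-like range in full, with a log2 fold change of 1.14 ± 0.16 (adjusted p = 8.25e-08). Among the granulosa-like classes, the cycling and cumulus nuclei were lower. Cycling nuclei held 69.3 ± 3.74 CPM and cumulus nuclei 81.5 ± 8.61 CPM (n = 4 each), with log2 fold changes of -0.76 ± 0.17 and -0.52 ± 0.16. Mural (-0.43 ± 0.18, adjusted p = 0.0664) and progenitor nuclei (0.16 ± 0.15, at 107 to 148 CPM) did not pass. Pericyte-like nuclei were lower too (-0.70 ± 0.22), from 6 to 40 UMIs per goat. The cumulus call was lost without Du'an 2 or Nubian 1 (adjusted p = 0.0808 and 0.237, the latter at a log2 fold change of -0.32), and the pericyte-like call without either Du'an goat, with a log2 fold change of -0.46 without Du'an 2. T or natural killer-like nuclei had the lowest level of all (40.8 ± 12.9 CPM).

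BMPR2 encodes the type II receptor that pairs with BMPR1A and BMPR1B, and it was highest in blood endothelial-like and mural granulosa-like nuclei. In blood endothelial-like nuclei it stood at 809 CPM in Du'an 1, 972 in Du'an 2, 829 in Nubian 1 and 767 in Nubian 2 (844 ± 88.9, n = 4), with a log2 fold change of 1.43 ± 0.15 (adjusted p = 8.49e-11). Mural granulosa-like nuclei held 870, 721 and 727 CPM in Du'an 2, Nubian 1 and Nubian 2, with a log2 fold change of 1.37 ± 0.18 (adjusted p = 1.53e-08). These classes overlapped each other and lay above the next, lymphatic endothelial-like nuclei at 532 ± 110 CPM, where the log2 fold change was 0.72 ± 0.17. Progenitor granulosa-like nuclei were uneven at 493, 418, 354 and 819 CPM, and their log2 fold change of 0.83 ± 0.16 dropped to 0.49 without Nubian 2 (adjusted p = 0.0545). Cumulus nuclei stood at the mean of the classes, with 326 ± 58.8 CPM. Theca-like nuclei were the lowest class at 79.8, 83.4, 162 and 177 CPM from 5 to 44 UMIs per goat, a log2 fold change of -1.82 ± 0.24 (adjusted p = 7.76e-08). Their mean thinned share of 12.3% lay beside the 12.6% of T or natural killer-like nuclei.

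ACVR2A encodes a type II receptor shared by activins and BMPs, and it had the fewest calls among the receptors, with 3 over the 14 classes. Lymphatic endothelial-like nuclei were higher, at 197 CPM in Du'an 1, 345 in Du'an 2, 404 in Nubian 1 and 349 in Nubian 2 (324 ± 88.7, n = 4). The log2 fold change was 0.96 ± 0.15 (adjusted p = 6.73e-07). Macrophage-like (91.2 ± 6.62 CPM) and T or natural killer-like nuclei (99.3 ± 23.1 CPM) were lower, by -0.98 ± 0.18 and -0.87 ± 0.18. From the first to the twelfth place every class overlapped the next, so no order can be read among the granulosa-like, mesenchymal and epithelial-like classes. The RefSeq annotation of assembly ARS1.2 has ORC4 overlapping ACVR2A, and the counting of reads in that overlap is not given in the sources used here.

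SMAD1 had the steepest profile of the 8 genes. Its level in lymphatic endothelial-like nuclei was 2053 CPM in Du'an 1, 1856 in Du'an 2, 2583 in Nubian 1 and 1971 in Nubian 2 (2116 ± 322, n = 4), a log2 fold change of 4.87 ± 0.13 (adjusted p = 2.08e-33). Blood endothelial-like nuclei came second at 321, 215, 360 and 270 CPM (log2 fold change 1.75 ± 0.16, adjusted p = 5.17e-13), and neither class overlapped the next in the order. The other classes held 20.2 to 112 CPM on average, with granulosa-like classes between 59.1 and 81.7 CPM. After thinning, 71.8% ± 3.20 of lymphatic endothelial-like and 23.4% ± 3.60 of blood endothelial-like nuclei had a UMI of SMAD1, against 1.44% ± 1.06 of T or natural killer-like nuclei. SMAD1 was lower in macrophage-like (-2.19 ± 0.25) and T or natural killer-like nuclei (-2.13 ± 0.24). A call in theca-like nuclei (-0.74 ± 0.27, adjusted p = 0.0476) was lost without any 1 of the 4 goats (adjusted p = 0.0539 to 0.337), and under 7 alternative settings in all.

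**Figure D3:**
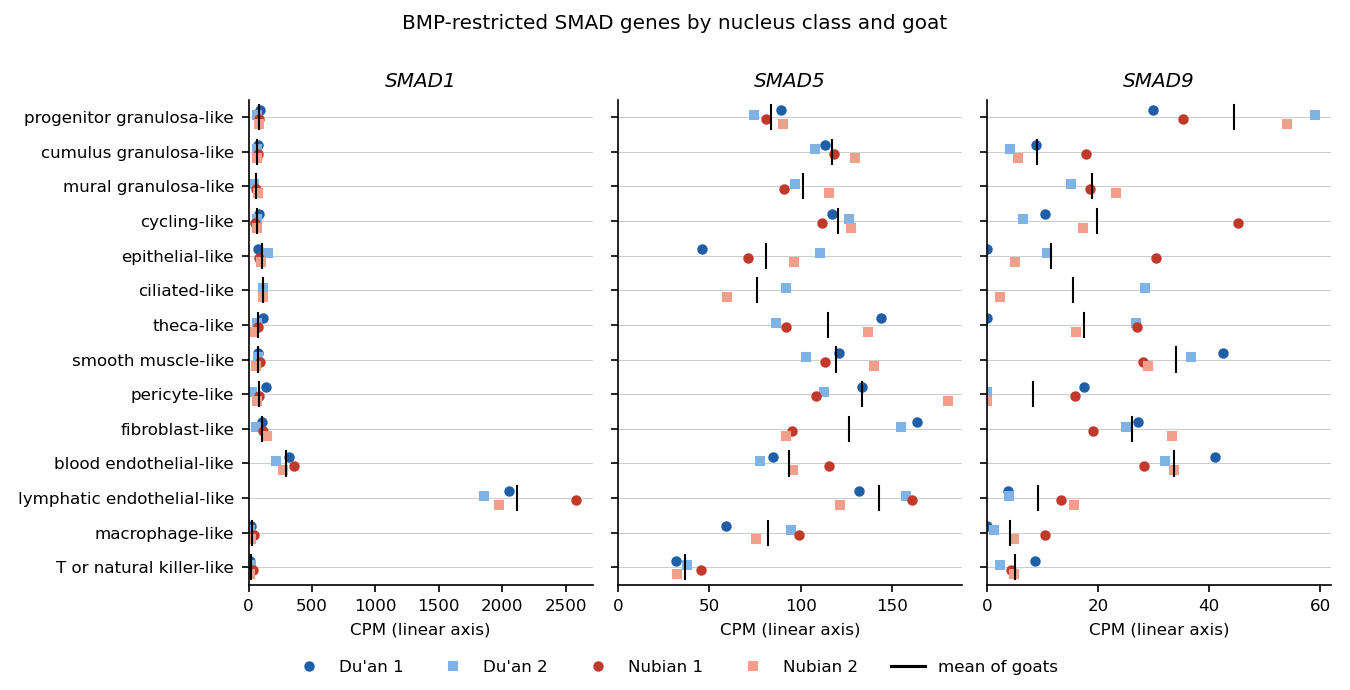
CPM of SMAD1, SMAD5 and SMAD9 (horizontal axes, linear, each with its own scale) in the 14 classes, with 1 point per goat and a black line at the mean of the goats. SMAD1 in lymphatic endothelial-like nuclei lies between 1856 and 2583 CPM, with every other point at 360 CPM or below.

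SMAD5 was nearly even over the classes outside the T or natural killer-like nuclei. The means ran from 75.8 CPM in ciliated-like to 143 CPM in lymphatic endothelial-like nuclei, and each class overlapped the next in the order down to the thirteenth. Lymphatic endothelial-like nuclei were higher, with 132, 157, 161 and 122 CPM in the order above and a log2 fold change of 0.65 ± 0.13 (adjusted p = 0.000115). Cycling (0.42 ± 0.13) and cumulus nuclei (0.36 ± 0.13) were higher by less. The cumulus call was lost under 4 alternative settings, among them those without Du'an 2 or Nubian 2 (adjusted p = 0.0595 and 0.182). T or natural killer-like nuclei held 36.9 ± 6.25 CPM, a log2 fold change of -1.38 ± 0.17 (adjusted p = 1.33e-09), and did not overlap the class above.

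SMAD9, also known as SMAD8, was the sparsest member, with 3592 UMIs in all kept nuclei. Progenitor granulosa-like nuclei had the highest mean, at 29.9 CPM in Du'an 1, 59.0 in Du'an 2, 35.3 in Nubian 1 and 54.1 in Nubian 2 (44.6 ± 14.2, n = 4), a log2 fold change of 1.96 ± 0.27 (adjusted p = 6.11e-08). Smooth muscle-like (34.1 ± 6.81 CPM, 1.25 ± 0.29 on the log2 scale) and blood endothelial-like nuclei (33.7 ± 5.35 CPM, 1.38 ± 0.32) were higher as well. Cycling nuclei were uneven, at 10.5, 6.43, 45.2 and 17.3 CPM. Every class overlapped the next in the order of means. The thinned share was 4.36% ± 1.33 in progenitor granulosa-like and 0.468% ± 0.398 in T or natural killer-like nuclei. No UMI was found in the theca-like, epithelial-like and macrophage-like nuclei of Du'an 1 or in the pericyte-like nuclei of Du'an 2 and Nubian 2, where a count of 0 allows up to 3 UMIs.

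Read by class, the number of the 8 genes that passed the test was set against the share of all genes that passed it. In blood endothelial-like nuclei 6 genes passed, 4 higher and 2 lower, where 29.8% of all genes passed. Lymphatic endothelial-like nuclei also had 6, 4 higher and 2 lower, with 26% of all genes. Progenitor granulosa-like nuclei had 4 higher (29% of all genes), mural granulosa-like nuclei 3 higher (31.8%), and smooth muscle-like nuclei 3 higher (19.9%). Cumulus and cycling nuclei had 3 higher and 1 lower each, with 34.1% and 37% of all genes. Epithelial-like nuclei had 2 higher (25%) and ciliated-like nuclei 1 higher (25.8%). Theca-like nuclei had 1 higher and 2 lower (16.7%), and pericyte-like nuclei 1 higher and 1 lower (11.4%). Macrophage-like nuclei had 5 lower (51.5%) and T or natural killer-like nuclei 8 lower (54.2%). In fibroblast-like nuclei 0 passed by edgeR, where 20.4% of all genes passed, and 0 had an unadjusted p under 0.05. The median log2 fold change over the 8 genes ran from -1.56 in T or natural killer-like to 0.77 in blood endothelial-like nuclei, and that over all genes from -0.195 to 0.11 over the classes.

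The granulosa-like subtypes were compared with each other in a fit of their own over 13455 genes. Progenitor nuclei were named from genes such as ENPP1 and IGFBP5, with 3 of 6 markers raised in cluster 4 and 5 of 6 in cluster 7. Cumulus cells surround the oocyte and were named from genes such as IGFBP2 and RERG. Mural cells line the follicle wall and were named from genes such as CYP19A1, the aromatase, and LHCGR, the receptor of luteinizing hormone. Of the 32 pairs of gene and contrast, 11 passed, against 13367 of 53820 pairs over all genes. By this test the receptor genes BMPR1B and ACVR1 were lower, and SMAD5 higher, in both cumulus and mural than in progenitor nuclei. In Nubian 2, however, mural BMPR1B was not below progenitor BMPR1B. BMPR2 was higher in mural than in cumulus nuclei. Without Du'an 2, which supplied 1 of the 3 mural sums, the count fell to 4, and that over all genes to 7104 of 52748 pairs.

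In cumulus against progenitor nuclei 4 genes passed (27.8% of all genes passed). BMPR1B was lower by a log2 fold change of -1.07 ± 0.18 (adjusted p = 0.000916), with cumulus nuclei at 1212, 1306, 1696 and 1039 CPM against 2567, 3082, 3371 and 1507 CPM. It was lower in cumulus nuclei in each of the 4 goats. ACVR1 was lower by -0.67 ± 0.11 (adjusted p = 0.000684), with cumulus nuclei between 71.7 and 89.9 CPM and progenitor nuclei between 107 and 148 CPM. SMAD9 was lower by -2.58 ± 0.47 (adjusted p = 0.00151), with cumulus nuclei at 8.75, 4.09, 17.8 and 5.66 CPM. SMAD5 was higher by 0.39 ± 0.10 (adjusted p = 0.00899), between 107 and 130 CPM against 74.6 to 90.2 CPM, and lost the call without Du'an 2 or Nubian 2 (adjusted p = 0.0541 and 0.0767).

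In mural against progenitor nuclei 4 genes passed (30.1% of all genes passed), namely BMPR1A (0.54 ± 0.15) and SMAD5 (0.35 ± 0.11) higher and BMPR1B (-0.78 ± 0.20) and ACVR1 (-0.55 ± 0.12) lower. Each of these calls was lost without Du'an 2 (adjusted p = 0.158, 0.133, 0.162 and 0.0583 in the same order). BMPR1B was further lost without Nubian 1 (adjusted p = 0.112), and SMAD5 without Nubian 1 or Nubian 2 (adjusted p = 0.0537 and 0.136). The SMAD5 call was lost under 5 alternative settings in all. In mural nuclei BMPR1B stood at 1368, 1325 and 1518 CPM in Du'an 2, Nubian 1 and Nubian 2. Progenitor nuclei of the same goats held 3082, 3371 and 1507 CPM, so mural BMPR1B was not lower in Nubian 2. In mural against cumulus nuclei 1 gene passed (20.8% of all genes passed). This was BMPR2, at 870, 721 and 727 CPM in mural against 401, 340 and 299 CPM in cumulus nuclei of the same goats (1.33 ± 0.30, adjusted p = 0.00909), which lost the call without Du'an 2 at an unchanged 1.33 (adjusted p = 0.0739). In cycling against the mean of the other subtypes, BMPR1B (-0.53 ± 0.15) and ACVR1 (-0.45 ± 0.10) were lower, 2 genes where 20.6% of all genes passed. The BMPR1B call was lost without Du'an 1, Du'an 2 or Nubian 1 (adjusted p = 0.101, 0.132 and 0.0722).

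Several classes were made of clusters with different levels of the members. These clusters were picked after their values were seen and are described with no test. Progenitor granulosa-like nuclei came as cluster 4, led by PLPP4, RSPO2 and APOD among its genes, and cluster 7, led by RUNX2 and holding WNT5B. BMPR1B was higher in cluster 7 in every goat, at 4243 against 1523 CPM in Du'an 1, 3594 against 1588 in Du'an 2, 3429 against 2002 in Nubian 1 and 2178 against 1387 in Nubian 2, a ratio of 1.57 to 2.79. The goats differed in the mix of both. Cluster 4 supplied 2041 progenitor nuclei in Du'an 1 and 2645 in Nubian 2, against 97 in Du'an 2 and 41 in Nubian 1. The part of this mix in the progenitor levels of the goats was not tested. The high BMPR2 level of Nubian 2 in this class sat in cluster 4, at 893 CPM, against 402 CPM in cluster 7.

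Among blood endothelial-like nuclei, cluster 19 carried the arterial genes GJA5 and BMX, while cluster 12 was led by RBFOX3, ABCB1, CA4 and VWF among others. BMPR2 was higher in cluster 19 in every goat, at 1131, 1080, 1072 and 850.0 CPM against 605, 911, 636 and 700.2 CPM. SMAD9 followed the same direction in every goat, with ratios of 1.58 to 3.23. ACVR1 was higher in cluster 19 in 3 of 4 goats, with a ratio of 0.887 in Nubian 2, and SMAD1 was lower in cluster 19 in every goat. Among lymphatic endothelial-like nuclei, SMAD1 stood at 1927 to 2690 CPM in cluster 11, which held 1561 nuclei with FLT4 and RELN among its leading genes. It stood at 105, 340 and 393 CPM in cluster 24 of Du'an 2, Nubian 1 and Nubian 2, a cluster of 192 nuclei led by CCL21 at a median of 831 UMIs against 1992 in cluster 11.

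**Figure D4:**
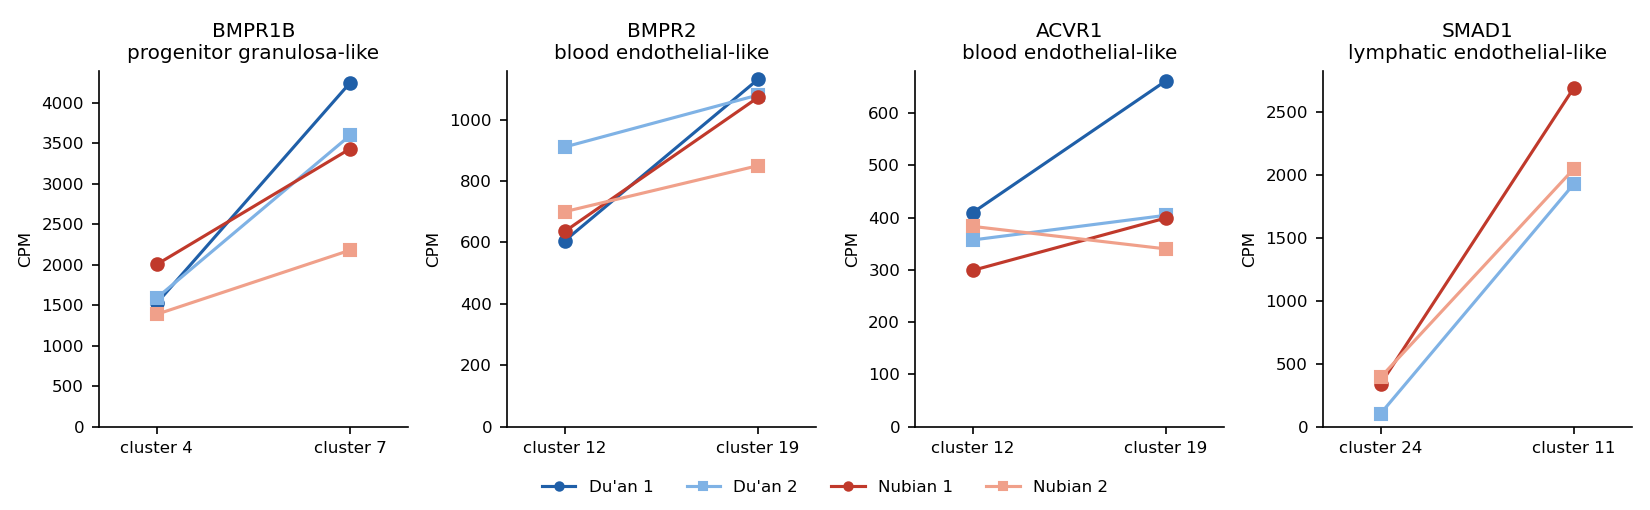
CPM of 4 members (vertical axes, linear from 0) in pairs of clusters that share a class name, with 1 line per goat. BMPR1B is higher in cluster 7 than in cluster 4 in each goat, by 1.57 to 2.79 times, and SMAD1 is lower in cluster 24 than in cluster 11 in the 3 goats with at least 20 nuclei in both.

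The wider pathway was followed with 51 further genes, of which 47 were in the matrices and 33 could be tested in the class fit. Of these 33, the number that passed was 23 for the blood endothelial-like class, 21 for the T or natural killer-like one, 19 in mural, 16 each in cumulus and macrophage-like, 15 each in progenitor and fibroblast-like, 14 in cycling, 13 in lymphatic endothelial-like, 11 in smooth muscle-like and 10 in epithelial-like nuclei. Pericyte-like and theca-like nuclei had 8 each and ciliated-like nuclei 6. Set against the share of all genes in the same class, this was 69.7% against 29.8% in blood endothelial-like, 57.6% against 31.8% in mural and 45.5% against 20.4% in fibroblast-like nuclei. It was 63.6% against 54.2% in T or natural killer-like, 48.5% against 51.5% in macrophage-like, 42.4% against 37% in cycling, 30.3% against 25% in epithelial-like and 18.2% against 25.8% in ciliated-like nuclei, which lay near that background. The other classes were at 48.5% against 34.1% (cumulus), 45.5% against 29% (progenitor), 39.4% against 26% (lymphatic endothelial-like), 33.3% against 19.9% (smooth muscle-like), 24.2% against 11.4% (pericyte-like) and 24.2% against 16.7% (theca-like). Of the oocyte ligands, BMP15 had 0 UMIs and GDF9 had 271 UMIs in the 44687 kept nuclei, and neither could be tested.

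Blood endothelial-like nuclei, where ACVR1, BMPR2 and SMAD1 were high, had 3 of 5 tested ligands higher (BMP4, BMP6 and BMP2) and 0 lower. All 6 tested target genes (ID1, ID2, ID3, ID4, MSX1 and HEY1) were higher and so were the inhibitory SMADs. The 3 largest were HEY1, a Notch and BMP target (log2 fold change 6.49 ± 0.40), ACVRL1, the endothelial type I receptor ALK1 (5.85 ± 0.27), and ENG, its co-receptor endoglin (4.95 ± 0.17). HEY1 rested on 181 UMIs in all nuclei. The lower genes were FST (-0.83 ± 0.30), SMAD3 (-0.81 ± 0.18) and SMAD2 (-0.58 ± 0.16). Of 8 tested receptors and co-receptors 3 were higher and 0 lower, and of 7 antagonists and binding proteins 4 were higher and 1 lower.

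Lymphatic endothelial-like nuclei, where SMAD1 peaked, also had 3 of 5 ligands higher, led by BMP7 (4.58 ± 0.36), and 4 of 8 receptors and co-receptors higher, led by ACVRL1 (3.93 ± 0.36). BMP6 followed (2.72 ± 0.28), while BMP7 rested on 245 UMIs in all nuclei. Of the 6 target genes 1 passed, ID1, and it was higher. The inhibitory SMAD7 (-2.01 ± 0.53) and the activin-branch SMAD2 (-0.55 ± 0.17) were lower.

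Progenitor granulosa-like nuclei had 5 of 7 other SMADs and their regulators higher and 0 lower, with SMAD7 at 2.52 ± 0.26. FSTL3, which binds activins and BMPs (2.95 ± 0.48), and the ligand BMP2 (2.27 ± 0.29) completed the 3 largest. ENG (-2.52 ± 0.33) and BMP7 (-1.81 ± 0.60) were lower. Mural nuclei had FST, the activin-binding follistatin, higher (3.08 ± 0.23), with SMAD2 (1.75 ± 0.15) and ACVR1C (1.26 ± 0.50), and RGMA (-3.64 ± 0.49), BAMBI (-3.08 ± 0.55) and BMP4 (-2.60 ± 0.60) lower. Cumulus nuclei shared FST (2.50 ± 0.22) and SMAD2 (2.05 ± 0.13) and had MSX1 higher (2.31 ± 0.37). In mural against progenitor nuclei 20 of 31 tested genes passed (64.5%, against 30.1% of all genes), 3 higher and 17 lower. Of these, SMAD7 (-4.30 ± 0.68), FSTL3 (-4.20 ± 0.70) and BAMBI, a decoy receptor (-3.50 ± 0.48), fell most and FST (3.39 ± 0.25) rose most. Counts were sparse for FSTL3, BAMBI and MSX1, with 309, 520 and 561 UMIs in all nuclei.

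Theca-like nuclei, which had the lowest BMPR2 level, had RGMA, a BMP co-receptor (4.55 ± 0.30), BMP6 (2.66 ± 0.33) and SMAD3 (0.58 ± 0.17) higher. SMAD6 (-2.70 ± 0.95), ID2 (-2.43 ± 0.48) and SMAD4 (-1.02 ± 0.20) were lower. Epithelial-like nuclei, which had the highest BMPR1B level, had ACVRL1 (2.68 ± 0.59), ID4 (2.46 ± 0.56) and BMP7 (1.98 ± 0.75) higher and BMP6 (-2.89 ± 0.66), TGFBR3, the co-receptor betaglycan (-1.71 ± 0.24), and FST (-1.62 ± 0.38) lower.

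The profile of each member over the 14 class means was compared with 13242 genes, as a description only, since all classes come from the same 4 libraries. BMPR1A was most like HIBCH (Pearson's r = 0.947 over 14 classes), EGFR (0.930) and ACADL (0.921). BMPR1B was most like ATP2C1 (0.902), ATRNL1 (0.894) and GAREM1 (0.885), and SMAD1 most like MTMR2 (0.943), PTPN14 (0.927) and MTMR10 (0.923). SMAD5 was most like DOCK1 (0.927), LRP6 (0.921) and LRP5 (0.888). ACVR2A was most like DPYSL3 (0.891), NECTIN2 (0.890) and LOC102184403 (0.878), and ACVR1 most like C3H1orf226 (0.884), LOC106502743 (0.853) and APOA1 (0.844). SMAD9 was most like KIDINS220 (0.835), GALNT15 (0.821) and GATSL2 (0.812), and BMPR2 most like SEMA7A (0.822), LOC102181933 (0.80) and ARPIN (0.796). No member was among the 3 most alike of another.

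The comparison of the polytocous Nubian with the monotocous Du'an goats asks whether these genes differ with prolificacy within a class. It could be made in the 12 classes that had 20 or more nuclei in all 4 goats, which leaves out mural and ciliated-like nuclei. Of 90 tested pairs of gene and class, 0 passed by edgeR and 6 had an unadjusted p under 0.05. DESeq2 also called 0 of these pairs, with 3 at an unadjusted p under 0.05. Over all genes DESeq2 called 354 of 101939 pairs, from 0 to 266 per class. By edgeR the percent of all genes that passed was 0% in each of the 12 classes, with 65 to 1126 genes per class at an unadjusted p under 0.05. Over all genes and classes these were 4469 of 101939 pairs. With 2 goats per breed, the standard errors of the members' log2 fold changes ran from 0.143 to 0.638, with a median of 0.327. Differences several times their standard error also missed the threshold, and the lack of calls does not show that the breeds were alike.

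**Figure D5:**
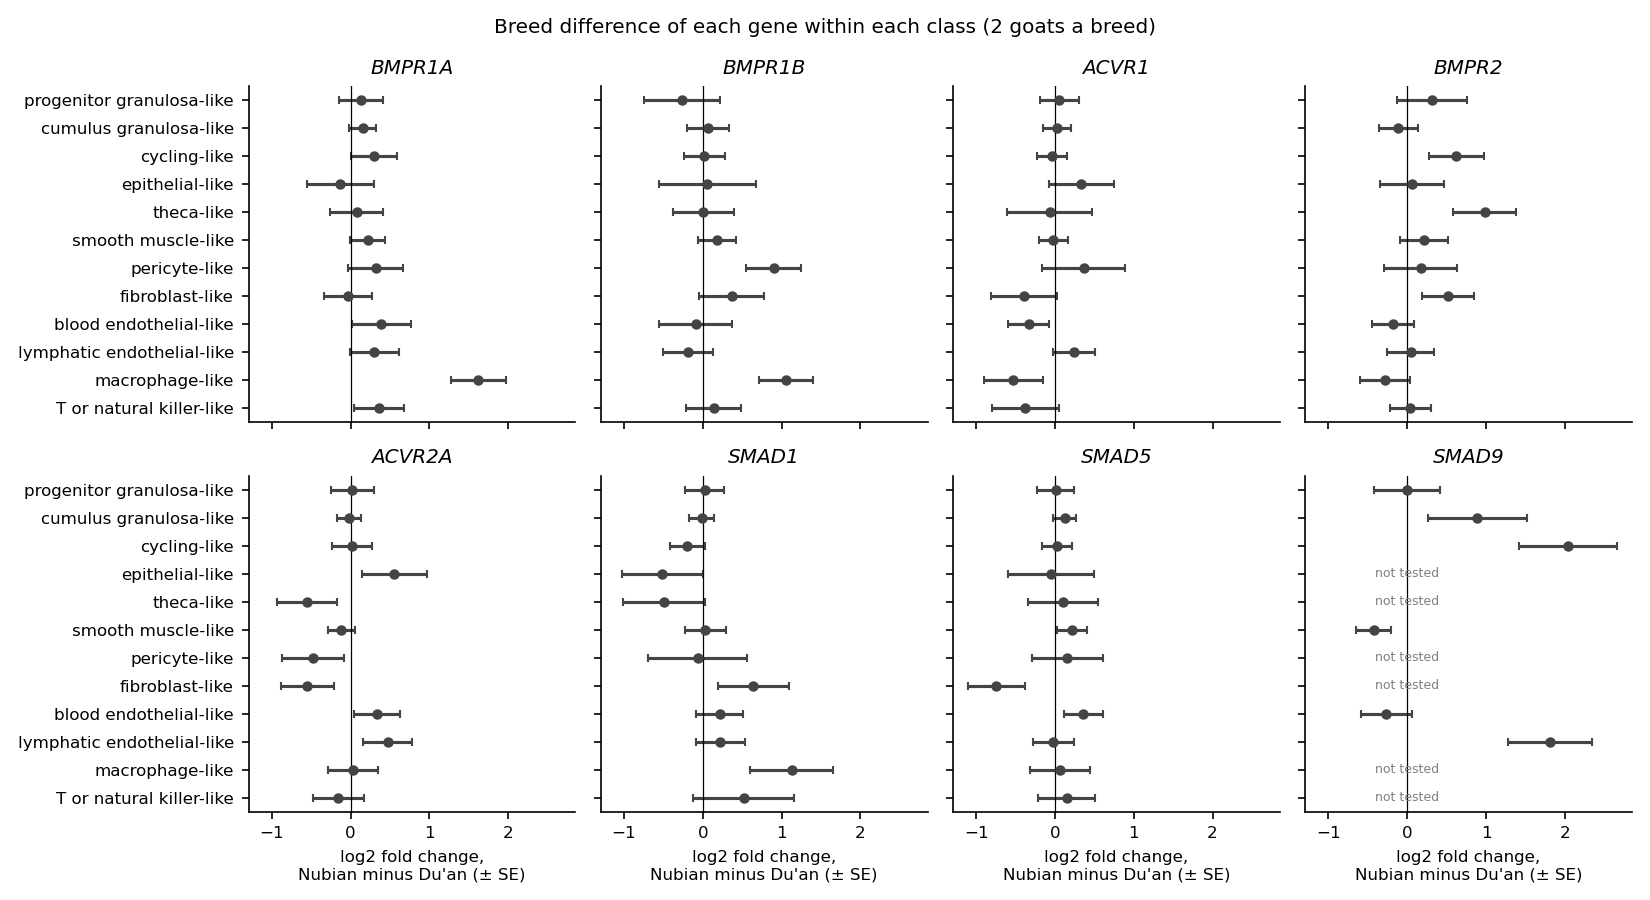
Log2 fold change of Nubian against Du'an goats (horizontal axis, points) with its standard error (bars) for each of the 8 genes in the 12 classes tested, 2 goats a breed. None of the 90 points passed the adjusted threshold, and the values lie between -0.74 and 2.04.

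BMPR1B, the gene of the Booroola mutation, had breed log2 fold changes within 1 SE of 0 in the granulosa-like classes. They were 0.07 ± 0.27 in cumulus, -0.26 ± 0.48 in progenitor and 0.02 ± 0.26 in cycling nuclei. In cumulus nuclei it stood at 1212 and 1306 CPM in the Du'an goats and at 1696 and 1039 CPM in the Nubian goats. In progenitor nuclei the values were 2567 and 3082 against 3371 and 1507 CPM. In cycling nuclei they were 1179 and 1238 against 1188 and 1155 CPM. The Nubian goats lay on both sides of the Du'an goats in the first 2 of these classes, and the ranges overlapped in all 3. Within progenitor cluster 7 the BMPR1B values were 4243 and 3594 against 3429 and 2178 CPM, without overlap. Within cluster 4 they were 1523 and 1588 against 2002 and 1387 CPM, with overlap. These clusters were picked after their values were seen, and no share over all genes was taken for them. Among all tested pairs of gene and class, 31.3% had no overlap between the breeds, so the values of cluster 7 are not read as a breed difference. The goats differed in the mix of both clusters, and its part in the class levels was not tested. Over the 12 classes the log2 fold changes of BMPR1B ran from -0.26 to 1.05. For ACVR1, ACVR2A and SMAD5 all values lay between -0.74 and 0.55.

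The 2 largest breed differences were those of SMAD9, the sparsest member. In cycling nuclei it was at 10.5 and 6.43 CPM in the Du'an goats and 45.2 and 17.3 CPM in the Nubian goats, a log2 fold change of 2.04 ± 0.62 (adjusted p = 0.990, edgeR). Of the cycling nuclei of Nubian 1, 799 of 911 sat in cluster 13, which Du'an 1 lacked, and SMAD9 was higher there than in cluster 14 in the 3 goats that had both. The log2 fold change was 1.06 without Nubian 1 and 0.49 when clustering was run without the marker genes, and it passed (2.07, adjusted p = 0.000131) when the low-count filter was dropped. SMAD9 in lymphatic endothelial-like nuclei was at 3.83 and 4.04 CPM against 13.4 and 15.8 CPM, from 3 to 31 UMIs per goat, a log2 fold change of 1.81 ± 0.54 (adjusted p = 0.9999, edgeR). BMPR1A in macrophage-like nuclei was at 52.1 and 52.9 CPM against 201 and 138 CPM, a log2 fold change of 1.62 ± 0.35 (adjusted p = 0.506), and passed without the low-count filter (1.61, adjusted p = 0.0114). BMPR1B moved with it (1.05 ± 0.34, adjusted p = 0.564), and T or natural killer-like nuclei held 89.6, 113, 170 and 93.4 CPM of BMPR1A in the same order of goats. The part of free RNA in these differences was not tested. SMAD1 in macrophage-like nuclei (1.13 ± 0.53) and BMPR2 in theca-like nuclei (0.98 ± 0.40) were the largest differences of these genes.

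Of the 90 pairs, 24 (26.7%) had breed ranges that did not overlap, 15 with Nubian and 9 with Du'an goats higher. Over all 101939 tested pairs of gene and class the share was 31.3%, so the members lay near the background.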

How the data were processed

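Per the labels and the study's methods, nuclei of the left ovaries were run on the 10x Genomics 3′ platform, and the authors made UMI count matrices with Cell Ranger 5.0.0, while the matrix headers name version 3.1.0. The exact annotation release is not given in the sources used here. The deposited values are raw UMI counts per gene and nucleus, with 28944 genes and 40573246 to 71613892 UMIs per library. Deposited tables of the authors' cluster comparisons (fold changes, p-values and shares of cells) were not used.

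Following the study's filters, nuclei beyond 2 SD of the mean UMI or gene number, or with over 20% mitochondrial UMIs, were removed, and genes in at least 5 nuclei were kept for clustering. Scrublet at an expected rate of 10% marked 185 nuclei, a share too low to count as working, so doublets remain possible. Counts were scaled to 10000 per nucleus, and 2000 variable genes, without the 8 members, the listed pathway genes and mitochondrial genes, gave 30 principal components after regression on the mitochondrial share. Leiden clustering (leidenalg 0.10.2, 20 neighbours, resolution 0.8) gave 26 clusters. Clusters were named from fixed marker lists. A name needed at least 3 markers at 10 CPM or more with a log2 fold of 1 or more against the median of the other clusters, and a mean log2 fold of at least 0.5. Both thresholds were chosen once values had been seen. A cluster that met them still stayed unnamed where its leading genes held more markers of another list than of its own. This was so for clusters 9 and 20. A further rule, for clusters of low depth without an own marker among the leading genes, was also in place. A second clustering of the granulosa-like nuclei was planned, but the first clusters already had subtype names and were used. Classes were made from the same nuclei as the tests, through other genes.

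Counts were summed per goat and class where at least 20 nuclei were present (53 sums). Sums were tested with edgeR 4.0.16 (quasi-likelihood, TMM scaling, filterByExpr), with the goat as a block for classes and subtypes and without it for breeds, at an adjusted p of 0.05. DESeq2 1.42.0 was an alternative. Fits were tested on simulated data. Shares of nuclei with a UMI are given after thinning to 1000 UMIs. Named pathway genes are, per contrast, up to 3 in each direction with the largest log2 fold change among those that passed, with further members of a role named where a whole role is counted. Genes most alike are the 3 with the highest Pearson's r over class means of log2(CPM + 1), among genes of at least 10 CPM in some class. The members, gene lists and tests were chosen with earlier results of these data known. Alternatives are another tool, no low-count filter, resolutions 0.4 and 1.2, removal of the 10% of nuclei with the highest doublet scores, clustering without the marker genes, at least 50 nuclei per sum, thinning to 500 UMIs or none, and leaving out each goat.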

Additional observations from a re-analysis of the deposited data

Results flagged for a closer look

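In a group of 4 goats, a value was singled out where its gap to the nearest other goat was too large a part of the whole range (Dixon's 95% critical value), which chance reaches in about 1 of 20 groups. Of 96 groups of 4 goats, 1 was singled out. BMPR1A in cycling nuclei stood at 714 CPM in Nubian 1, against 522 to 533 CPM in the other goats. Of the cycling nuclei of Nubian 1, 799 of 911 were in cluster 13, and the part of this in the level was not tested.

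For 2 genes, both Du'an goats moved one way and both Nubian goats the other in cycling against cumulus nuclei. This was looked for over all 8 genes and the contrasts among progenitor, cumulus and cycling nuclei, and no share over all genes was taken. The difference between the breeds was not tested. BMPR2 had a mean log2 difference of -0.12 in the Du'an and 0.43 in the Nubian goats, 0.552 apart. Cycling cluster 13, which Du'an 1 lacked, held 799 of the 911 cycling nuclei of Nubian 1. BMPR2 was higher in cluster 13 than in cluster 14 in Du'an 2 (569 against 295 CPM) and Nubian 1 (571 against 264 CPM). In Nubian 2 it was lower (313 against 348 CPM). The part of this cluster mix in the BMPR2 difference was not tested. SMAD5 had 0.14 in the Du'an and -0.06 in the Nubian goats, a difference of -0.193 from Du'an to Nubian.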

How the results depend on the processing

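The count of pairs of member and class that passed was 51 of 112, against 61671 of 209216 pairs over all genes. It was 45 to 59 under the alternatives (45 to 52 when 1 goat was left out). Over all genes the alternatives ranged from 46123 of 186615 pairs without Du'an 2 to 70627 of 209216 pairs with DESeq2. In the granulosa-like subtypes it was 11 of 32, 17 with DESeq2 and 4 to 12 when 1 goat was left out, with the 4 found without Du'an 2. Over all genes the subtype fits called 13367 of 53820 pairs, 15007 of 53820 with DESeq2 and 7104 of 52748 without Du'an 2. For the members between the breeds, the count was 0 of 90, and 0 under each alternative except without the low-count filter, where it was 2 of 96. These were SMAD9 in cycling nuclei (2.07, adjusted p = 0.000131) and BMPR1A in macrophage-like nuclei (1.61, adjusted p = 0.0114), in a fit that called 1994 of 207151 pairs over all genes. The cause was not tested. SMAD9 in cycling nuclei was 0.49 when markers were left out of the clustering. The count of shares above T or natural killer-like nuclei was 99 of 104, and 97 after thinning to 500 UMIs. Over 72 single values and 800 repeats, 753 kept their call, 45 lost it, 2 gained it and 0 changed direction. Calls lost most often were SMAD1 in theca-like nuclei (7 alternatives), BMPR1B in cycling nuclei (6) and SMAD5 in mural against progenitor nuclei (5). SMAD5 in cumulus nuclei and BMPR1B in cycling against the other subtypes were lost under 4 each. ACVR1 in pericyte-like nuclei and SMAD5 in cumulus against progenitor nuclei were lost under 3 each. The planned second clustering of the granulosa-like nuclei at other resolutions was not run, and the classes with mural nuclei rest on 3 goats.

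The labels number the goats 1 and 2 in each breed without pairing them. With the replicate block, 0 of 90 breed pairs passed among the members. Deviations of same-numbered goats correlated at -0.392 to 0.183 over the 12 classes. With the numbers crossed, chosen after seeing the data, 0 members passed, and 165 pairs over all genes against 30 with the uncrossed block.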
